A study of Mus musculus with 15 samples.

Results

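Aortas of mice given both angiotensin II and resolvin E1 were compared with aortas of mice labelled Sham, for which the labels state no further treatment. The AngII + RvE1 group was infused at 750 ng/kg/min with angiotensin II, a peptide hormone that constricts arteries and raises blood pressure, together with resolvin E1 (RvE1), a lipid mediator derived from eicosapentaenoic acid, given intraperitoneally at 2 µg/kg/day. The comparison takes 10 of the 15 libraries of the series, 5 from each group, taken by their treatment labels. All mice were labelled WT, and the tissue was whole aorta from which total RNA was extracted. The remaining 5 libraries, from mice infused with angiotensin II alone (AngII), entered the estimate of the spread and are used as a side comparison. The labels give neither strain, sex and age, nor the length of treatment, nor the time of day at which tissue was taken. Nor do they say whether each library had its own animal, and p-values therefore reflect only how these libraries varied, which may be technical. Setting the group given both agents against Sham shows how far its aortic transcripts differed from those of the control group.

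Values are treated as FPKM, reads scaled to gene length and library depth, although the file names no unit. Column sums ranged from 385846 to 514281, and read depth is unknown. Of the 34714 genes listed, 12603 reached 1 FPKM in 5 or more of the 15 libraries and were tested on the log2(FPKM + 1) scale. A gene is called changed where its limma adjusted p is under 0.05. Correlations between libraries ran from 0.902 to 0.972 within Sham, from 0.950 to 0.983 within AngII + RvE1, and from 0.913 to 0.982 between the groups. The median gene had an SD of 0.31 in Sham, 0.21 in AngII + RvE1 and 0.29 in AngII on the log2 scale. Correlations within AngII ran from 0.868 to 0.968. Because the fit pools the spread of all 15 libraries, that of AngII also enters the intervals and p-values of this comparison. Smooth muscle genes were present in all 10 libraries compared, with Myh11, the smooth muscle myosin heavy chain, between 111 and 626 FPKM. Fat genes were present as well: Adipoq, the adipocyte hormone adiponectin, lay between 359 and 661 FPKM in Sham and between 324 and 723 FPKM in AngII + RvE1. Heart muscle genes were present very unevenly. The mean of 14 cardiac genes lay between 1.53 and 5.94 in Sham and between 1.52 and 6.12 in AngII + RvE1 on the log2 scale. The libraries thus hold RNA of vessel wall and fat and, in unequal amounts, of heart muscle, whose part in other differences was not tested. In such bulk samples, fewer cells of a type and less RNA per cell cannot be told apart.

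In the fit over all 15 libraries 3 genes changed, 0.0238% of those tested, and all 3 belong to the circadian clock. Dbp, a transcription factor driven by the clock, was 14.1-fold higher in mean level in AngII + RvE1 than in Sham. Nr1d1, which encodes the nuclear receptor REV-ERB alpha, was 3.17-fold higher. Cry1, which encodes a cryptochrome repressor, was 2.71-fold higher in Sham and so lower in AngII + RvE1. Of 22 alternative analyses, Dbp passed in all, while the call was lost in 12 for Nr1d1 and in 13 for Cry1. The 7 smallest p-values of the whole comparison were those of clock genes, and clock genes made up 8 of the 12 smallest.

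The circadian clock is a loop of transcription factors found in nearly every cell, the muscle and endothelium of the artery included. BMAL1 (gene Arntl) pairs with CLOCK or NPAS2 and switches on genes through E-boxes, among them the period (Per) and cryptochrome (Cry) genes, whose proteins later repress that pair. A second loop couples in the REV-ERB receptors (Nr1d1, Nr1d2), which repress Arntl, Cry1 and Nfil3 through ROR elements, against activating ROR receptors such as that of Rora. The outputs Dbp, Tef and Hlf bind D-boxes, where the repressor NFIL3 competes with them. Transcripts of these genes cycle over the day, and those of Arntl and Npas2 peak at nearly the opposite time to Dbp and Nr1d1. The time of day at which each library was taken is not given. Treatment and time of collection therefore cannot be told apart in the clock gene differences.

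The sequences upstream of 5 of these genes are shown because the genes span the outputs, both loops and the competing repressor. Each run holds the 250 bases before the start site that the promoter table gives for a transcript of the gene, from RefSeq on GRCm38.p6, written 5′ to 3′ on the strand of the gene. Where the annotation also holds transcripts that start further upstream, the run lies partly or wholly inside the gene: 147 of its bases in Dbp, 42 in Per3, all 250 in Nfil3 and 0 in Nr1d1 and Cry1. Capitals mark matches to any of the 4 motifs searched on both strands: the E-box CACGTG, its variant CACGTT, the D-box TTATGTAA and the ROR element TAGGTCA.
Dbp (chr7:45704997-45705246, plus strand): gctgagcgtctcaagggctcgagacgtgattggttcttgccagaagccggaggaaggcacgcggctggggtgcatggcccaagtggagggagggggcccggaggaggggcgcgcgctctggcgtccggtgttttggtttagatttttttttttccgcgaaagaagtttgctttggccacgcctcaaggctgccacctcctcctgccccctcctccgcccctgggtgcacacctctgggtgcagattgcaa
Nr1d1 (chr11:98775378-98775627, minus strand): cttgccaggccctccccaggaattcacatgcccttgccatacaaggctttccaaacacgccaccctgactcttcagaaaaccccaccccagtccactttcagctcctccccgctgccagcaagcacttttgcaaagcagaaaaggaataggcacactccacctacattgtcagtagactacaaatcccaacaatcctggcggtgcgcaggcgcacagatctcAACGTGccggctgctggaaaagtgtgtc
Cry1 (chr10:85185055-85185304, minus strand): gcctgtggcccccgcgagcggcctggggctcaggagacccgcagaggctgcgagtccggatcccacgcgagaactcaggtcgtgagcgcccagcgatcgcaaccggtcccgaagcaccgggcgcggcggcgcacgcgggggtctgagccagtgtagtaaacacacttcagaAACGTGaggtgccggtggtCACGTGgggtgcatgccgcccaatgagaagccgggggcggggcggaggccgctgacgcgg
Per3 (chr4:151044666-151044915, minus strand): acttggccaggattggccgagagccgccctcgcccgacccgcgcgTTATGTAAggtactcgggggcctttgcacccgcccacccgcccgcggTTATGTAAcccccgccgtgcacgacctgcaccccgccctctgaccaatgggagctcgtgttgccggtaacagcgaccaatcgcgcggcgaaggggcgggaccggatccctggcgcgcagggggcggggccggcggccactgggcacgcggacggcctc
Nfil3 (chr13:52981040-52981289, minus strand): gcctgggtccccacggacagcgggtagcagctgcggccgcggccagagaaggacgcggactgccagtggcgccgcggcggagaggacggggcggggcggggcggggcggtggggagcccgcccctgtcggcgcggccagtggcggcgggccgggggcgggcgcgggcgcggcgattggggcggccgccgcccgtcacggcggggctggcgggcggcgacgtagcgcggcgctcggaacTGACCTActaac

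Windows of 300 bases, the 250 before the start site and the 50 after it, were found for 16 of the 19 clock genes tested, 21 windows in all. Among all 32851 windows in the reference, the E-box occurred in 7.15%, its variant in 4.68%, the D-box in 0.938% and the ROR element in 2.61%. Clock genes with an E-box were Bhlhe41, Ciart, Cry1, Per1 and Tef. The variant occurred in Cry1, Cry2 and Nr1d1, the D-box in Per3 only, with 2 matches, and the ROR element in Arntl and Nfil3. In the Cry1 sequence the E-box begins 60 bases and the variant 79 bases before the start site, and in Nr1d1 the variant begins 28 bases before it. In Per3 the D-boxes begin 205 and 158 bases before the start site, and in Nfil3 the ROR element begins 12 bases before it. The Arntl match lies after the start site and is not printed. The Dbp window holds none of the 4 motifs, which says nothing of regions outside it. No matches overlapped. A match describes the letters and is not evidence of binding.

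Dbp lies on chromosome 7 at 45705100 to 45710203 (mm10). Its level was 6.68, 3.85, 3.83, 2.18 and 4.02 FPKM in Sham libraries 1 to 5. In AngII + RvE1 libraries 1 to 5 it was 43.5, 34.2, 51.6, 74.9 and 86.5 FPKM. The lowest library under both agents was far above the highest Sham library. The means were 4.11 ± 1.62 and 58.1 ± 21.9 FPKM (SD, n = 5 each), and the log2 difference was 3.51, with a standard error of 0.31, a 95% interval of 2.85 to 4.17 and a limma adjusted p of 0.000112. Dbp was called in all 22 alternative analyses. Its end overlaps Sphk2, a sphingosine kinase gene, by 741 bases, and since the strand used in counting is not given, reads there could be assigned to either. Sphk2 differed by 0.21 (95% interval -0.12 to 0.54).

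The other outputs had higher values under both agents without passing the test. Tef ran from 16.5 to 21.5 FPKM in Sham and from 32.3 to 48.1 FPKM in AngII + RvE1, with no overlap, a log2 difference of 0.97 and a limma adjusted p of 0.0881. Hlf, the remaining member of that family, overlapped between the groups, with a log2 difference of 0.21 (95% interval -0.35 to 0.78). Nfil3, the repressor that competes with them, stood at 40.7, 20.4, 29.1, 18.4 and 28.2 FPKM in Sham and at 3.82, 14.9, 3.73, 8.99 and 5.94 FPKM under both agents. Every AngII + RvE1 library lay below every Sham library, library 2 closest to them. Its log2 difference was -1.85 (95% interval -2.59 to -1.11) and its limma adjusted p 0.114.

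**Figure D1:**
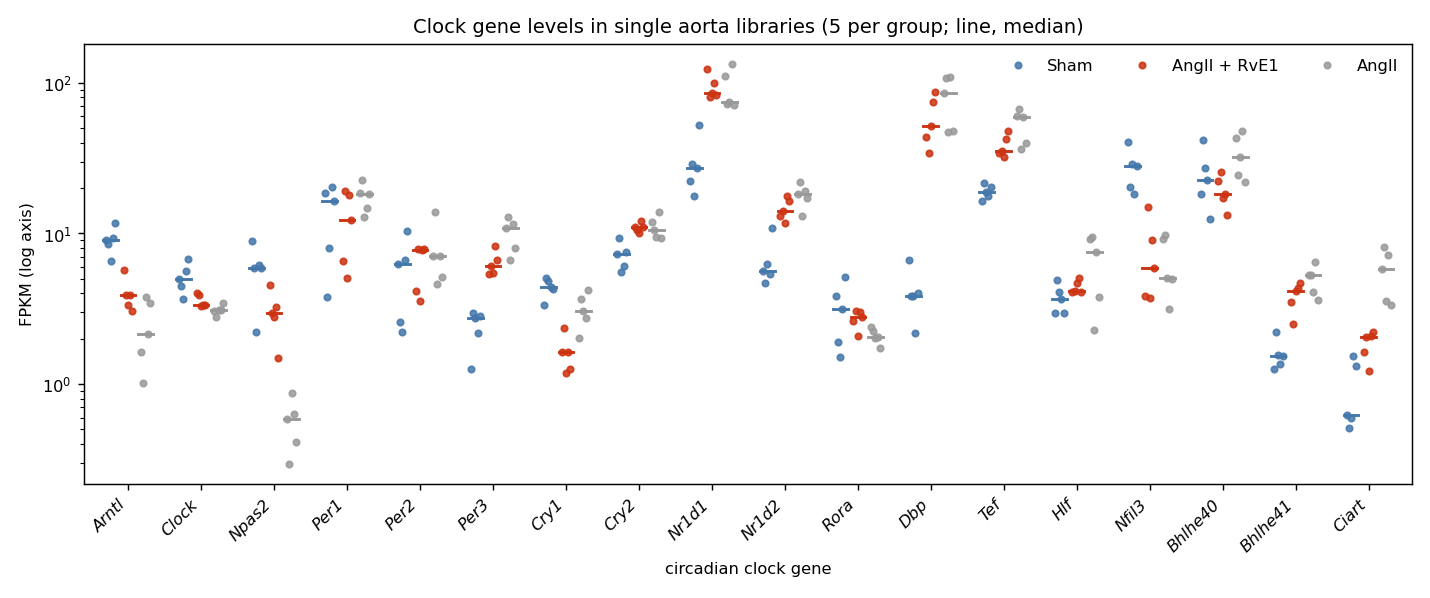
Levels of 18 of the clock genes in FPKM on a log axis, 1 point per library with a line at the median, for Sham, AngII + RvE1 and AngII (5 libraries each). For Dbp the AngII + RvE1 libraries sit between 34.2 and 86.5 FPKM, all above the Sham libraries, and for Cry1 they sit between 1.18 and 2.35 FPKM, all below them.

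Of the REV-ERB receptors, Nr1d1 was at 22.4, 29.0, 17.8, 27.1 and 52.2 FPKM in Sham and at 124, 80.8, 85.1, 99.7 and 82.5 FPKM in AngII + RvE1. The groups did not overlap, and Sham library 5 was the highest of its group. The means were 29.7 ± 13.3 and 94.3 ± 18.02 FPKM (SD, n = 5 each), and the log2 difference was 1.71, with a standard error of 0.25, a 95% interval of 1.17 to 2.25 and a limma adjusted p of 0.0365. The call was lost with only the 10 libraries compared (limma adjusted p 0.0762), without the filter (limma adjusted p 0.125) and with the replicate number as a block. It was also lost in 9 of the 15 fits that left out 1 library, with a highest limma adjusted p of 0.147. Nr1d1 lies on chromosome 11 at 98767932 to 98775377 and overlaps Thra, a thyroid hormone receptor gene, by 1075 bases. Thra differed by 0.19 (95% interval -0.23 to 0.62). Nr1d2, which encodes REV-ERB beta, ran from 4.70 to 10.9 FPKM in Sham and from 11.7 to 17.7 FPKM in AngII + RvE1, with a log2 difference of 1.08 and a limma adjusted p of 0.0881. The opposing receptor gene Rora did not pass the test and differed by -0.08 (95% interval -0.50 to 0.35).

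Among the repressors of the first loop, Cry1 was at 3.36, 5.04, 4.86, 4.40 and 4.27 FPKM in Sham and at 1.64, 2.35, 1.18, 1.64 and 1.27 FPKM in AngII + RvE1. No library of one group reached the range of the other. The means were 4.39 ± 0.657 and 1.62 ± 0.462 FPKM (SD, n = 5 each), and the log2 difference was -1.05, with a standard error of 0.16, a 95% interval of -1.39 to -0.71 and a limma adjusted p of 0.0365. This call was lost with only the 10 libraries compared (limma adjusted p 0.0593), without the filter (limma adjusted p 0.125) and with the replicate number as a block. It was also lost in 10 of the 15 fits that left out 1 library, with a highest limma adjusted p of 0.178. Cry1 lies on chromosome 10 at 85131700 to 85185054. Cry2, the other cryptochrome, had the opposite sign, from 5.51 to 9.31 FPKM in Sham and from 10.02 to 12.2 FPKM under both agents, with a log2 difference of 0.57 and a limma adjusted p of 0.393.

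The 3 period genes did not share a pattern. Per3 was at 1.27, 2.97, 2.76, 2.18 and 2.83 FPKM in Sham and at 5.42, 6.07, 5.50, 8.31 and 6.65 FPKM in AngII + RvE1. These groups did not overlap, and the log2 difference of 1.13 had a limma adjusted p of 0.0741. Per3 overlaps the protein-coding gene Uts2 by 4714 bases, where reads could be assigned to either. Per1 ran from 3.78 to 20.5 FPKM in Sham and from 5.05 to 19.1 FPKM in AngII + RvE1, a difference of -0.09 (95% interval -0.97 to 0.79). Per2 differed by 0.23 (95% interval -0.52 to 0.99). For both genes the Sham libraries alone spanned nearly the whole range of values.

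The activators had lower values under both agents, and none passed the test. Arntl was at 9.04, 8.46, 6.58, 9.33 and 11.7 FPKM in Sham and at 5.72, 3.89, 3.38, 3.92 and 3.06 FPKM in AngII + RvE1. The groups did not overlap, the log2 difference was -1.01 (95% interval -1.48 to -0.53), and the limma adjusted p was 0.343. Clock differed by -0.39 (95% interval -0.66 to -0.13, limma adjusted p 0.582) and Npas2 by -0.73 (95% interval -1.28 to -0.18, limma adjusted p 0.664). Of the other E-box repressors, Bhlhe41 ran from 1.26 to 2.21 FPKM in Sham and from 2.52 to 4.70 FPKM under both agents, with a log2 difference of 0.90 and a limma adjusted p of 0.0984. Bhlhe40 overlapped between the groups, with a difference of -0.25 (95% interval -0.87 to 0.36). Ciart, a repressor of the BMAL1 complex, differed by 0.59 (95% interval 0.12 to 1.06, limma adjusted p 0.664). A noncoding gene, C920021L13Rik, covers Ciart over its whole length of 3758 bases, so reads there could be assigned to either. Arntl, Clock, Npas2, Per2, Cry2, Rora and Bhlhe40 also overlap noncoding genes or pseudogenes.

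Of the 19 clock genes tested, 2 were called higher and 1 lower, against 0.0159% and 0.00793% of all genes. At an unadjusted p under 0.05 there were 13, 8 of them higher and 5 lower, where 6.69% of all genes had such a p. In 7 clock genes all AngII + RvE1 libraries lay above all Sham libraries and in 3 all lay below, where 0.825% and 0.262% of all genes did so. Since members differ in sign, the median log2 difference of the list, 0.21, does not describe it.

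**Figure D2:**
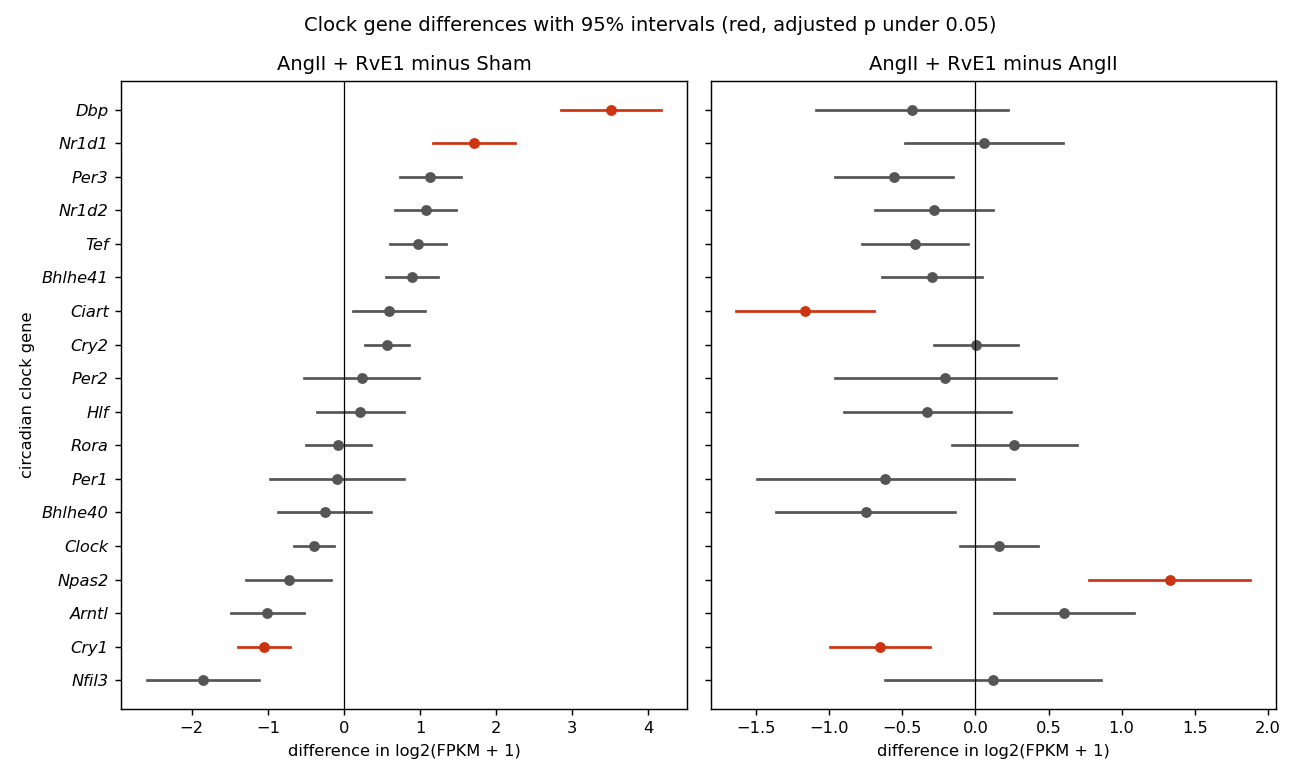
Log2 differences of 18 of the 19 clock genes with their 95% intervals, AngII + RvE1 minus Sham on the left and AngII + RvE1 minus AngII on the right, in log2(FPKM + 1), with genes of limma adjusted p under 0.05 in red. On the left Dbp stands at 3.51 and Nfil3 at -1.85, and on the right Npas2, Cry1 and Ciart are red.

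The AngII group gives the level of the same genes under infusion without RvE1. The comparison of both infused groups called 1074 genes, 8.52% of those tested, and 3 of the 19 clock genes. Dbp was 79.7 ± 30.7 FPKM in AngII (SD, n = 5), and AngII + RvE1 minus AngII was -0.43 (95% interval -1.09 to 0.22, limma adjusted p 0.37). For Nr1d1 that difference was 0.06 (95% interval -0.48 to 0.60). These intervals do not show that the infused groups had equal levels.

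Cry1 was lower under both agents than under infusion alone, where it ran from 2.02 to 4.21 FPKM, with a difference of -0.65 (95% interval -0.99 to -0.31, limma adjusted p 0.0278). AngII minus Sham for Cry1 was -0.40 (limma adjusted p 0.135). Npas2 stood at 5.84 ± 2.38 FPKM in Sham, 0.561 ± 0.222 in AngII and 3.01 ± 1.10 in AngII + RvE1 (SD, n = 5 each), and the last pair differed by 1.33 (limma adjusted p 0.0159). Ciart stood at 0.915 ± 0.469, 5.597 ± 2.12 and 1.84 ± 0.411 FPKM in the same order (SD, n = 5 each), and the last pair differed by -1.16 (limma adjusted p 0.0148). In both genes the AngII + RvE1 mean lay between those of Sham and AngII. AngII against Sham called 400 genes (3.17%), among them 12 of the 19 clock genes, with a log2 difference of 3.94 for Dbp and 1.65 for Nr1d1 (limma). Clock genes thus differed from Sham under infusion alone as well. Because both comparisons share the Sham libraries, they are not independent.

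Beyond the clock no gene passed the test, and most estimated differences were small. The median log2 difference of all genes was 0.01, the median size of a difference 0.13 and the median standard error 0.18. For 10791 genes, 85.6% of those tested, the 95% interval lay inside -1 to 1. At an unadjusted p under 0.05 there were 843 genes, 593 higher and 250 lower (4.71% and 1.98%). That count was 1710 (13.6%) without Sham library 1, 524 (4.16%) without AngII + RvE1 library 1 and 2234 (17.7%) with array weights, and list counts at this p vary with it. In 137 genes (1.09%) the groups did not overlap.

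**Figure D3:**
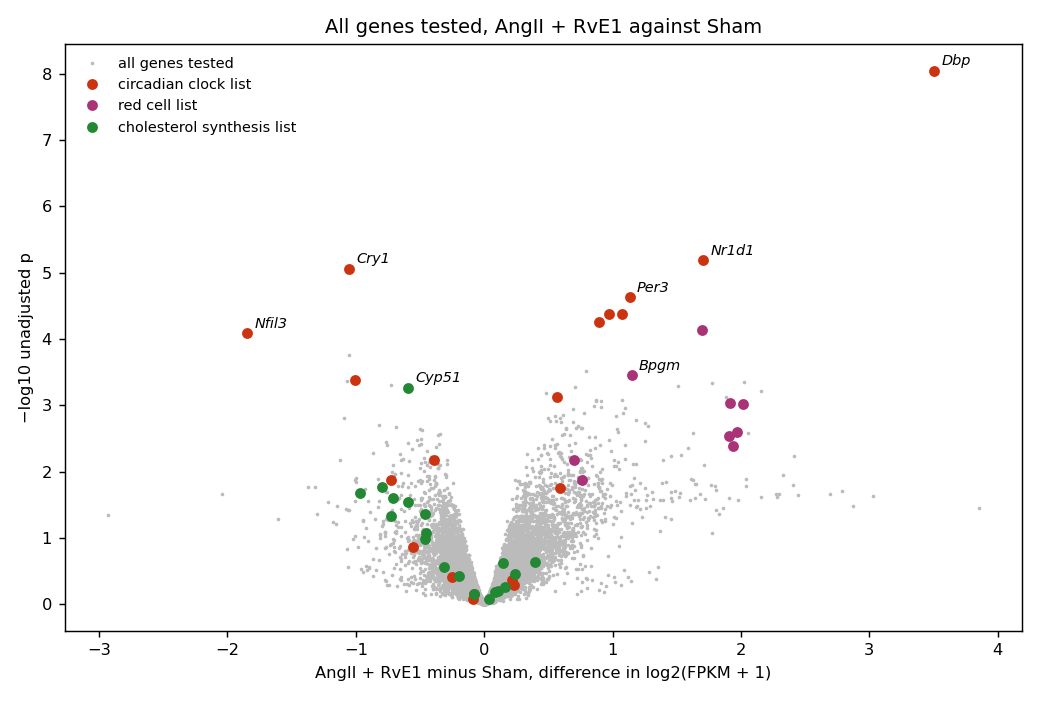
Every gene tested (grey), plotted by its difference in log2(FPKM + 1), AngII + RvE1 minus Sham, and by the −log10 of its unadjusted limma p, with the circadian clock, red cell and cholesterol synthesis lists coloured. Dbp stands apart at 3.51, and the red cell genes lie to the right of 0.

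Genes outside the clock with small p-values were Gm36317, Slc9b2 and Bpgm. Bpgm, the red cell enzyme that makes bisphosphoglycerate, ran from 16.9 to 31.3 FPKM and from 37.1 to 73.8 FPKM, with a difference of 1.15 and a limma adjusted p of 0.343. Slc9b2, a sodium/hydrogen exchanger, differed by 0.80 (limma adjusted p 0.343), and the unnamed gene Gm36317, which lies wholly within Vps13d, by -1.05 (limma adjusted p 0.22). With array weights Bpgm and Gm36317 were called and Slc9b2 was not.

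Red cell transcripts had higher values under both agents, though none passed the test over all 15 libraries with equal weights. With array weights 2 of the 9 tested passed, Bpgm among them (limma adjusted p 0.0224), where 17 of all genes (0.135%) did. The globin genes Hbb-b1 and Hbb-b2, which are not on the list and do not enter its counts, were also among the 17. All 9 red cell genes tested had positive differences, as 53.1% of all genes did. Each had an unadjusted p under 0.05, where 4.71% of all genes were higher at that p. In 7 of them all AngII + RvE1 libraries lay above all Sham libraries, where 0.825% of all genes did so. The median difference was 1.91, against 0.01 for all genes. Hba-a1, an alpha globin, was at 8163, 2070, 5027, 5971 and 4980 FPKM in Sham and ran from 10723 to 30871 FPKM in AngII + RvE1, a difference of 1.94 (95% interval 0.72 to 3.16, limma adjusted p 0.566). Alas2, the first enzyme of haem synthesis in red cell precursors, ran from 13.7 to 57.0 FPKM and from 66.0 to 220 FPKM, a difference of 1.92 (95% interval 0.92 to 2.91, limma adjusted p 0.396). Globin genes have near-identical copies, so the split of reads among them is uncertain. The mean of the list lay between 5.68 and 7.17 in Sham, between 7.46 and 8.80 in AngII + RvE1 and between 6.13 and 7.95 in AngII on the log2 scale. Whether blood in the tissue moved other differences was not tested.

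Nerve genes separated libraries within both groups. Of 15 Schwann cell and neuron genes tested, 8 had higher values at an unadjusted p under 0.05, where 4.71% of all genes did. None was called, and the median difference was 1.80. The 8 became 4 without Sham library 5 or AngII + RvE1 library 1, 3 without AngII + RvE1 library 3 and 2 without AngII + RvE1 library 2. Th, tyrosine hydroxylase of sympathetic neurons, was at 0.217, 0.377, 0.498, 13.3 and 0.111 FPKM in Sham and at 36.8, 50.4, 40.1, 17.0 and 0.00 FPKM in AngII + RvE1. Sham library 4 lay near AngII + RvE1 library 4, and AngII + RvE1 library 5 lay with the other Sham libraries, near 0. The difference of 3.03 had a 95% interval of 0.47 to 5.59 and a limma adjusted p of 0.669. Uchl1, a neuronal ubiquitin hydrolase, had no overlap, from 9.11 to 46.1 FPKM in Sham and from 79.7 to 128 FPKM in AngII + RvE1, a difference of 1.88 (limma adjusted p 0.393). Mesothelial transcripts were just as uneven: Upk3b was at 11.05, 25.3 and 17.7 FPKM in Sham libraries 1, 2 and 4 and at most 4.02 FPKM in any other of the 10 libraries. How much attached nerve and serosal tissue contributed to other differences was not tested.

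None of the 25 contractile genes of smooth muscle tested was called or had an unadjusted p under 0.05, while 23 had positive differences, as 53.1% of all genes did, and their median difference was 0.46. The count at that p was 9 without Sham library 1, 2 without AngII + RvE1 library 2, 7 with array weights and at most 1 without any other single library. Acta2, smooth muscle actin, was at 6288, 2272, 844, 2062 and 4428 FPKM in Sham and at 4192, 2634, 3365, 4500 and 4462 FPKM in AngII + RvE1. Its difference was 0.55 (95% interval -0.45 to 1.56), and that of Myh11 0.58 (95% interval -0.25 to 1.41), intervals wide enough to hold a change of 1 in log2. Sham library 3 had the lowest level of both genes. Against AngII alone, Acta2 was higher by 2.11 (limma adjusted p 0.0206), and 18 of the 25 genes were called higher, where 4.21% of all genes were.

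Matrix genes had mostly positive differences, and none was called. Of 31 collagen and collagen processing genes, 2 had higher values at an unadjusted p under 0.05, close to the share of 4.71% among all genes. Their median difference was 0.46. That count was 12 without Sham library 1, 9 without Sham library 5, 6 without AngII + RvE1 library 2, 5 without AngII library 2 or 5, 4 without AngII library 3, and 1 without Sham library 2, 3 or 4 or AngII + RvE1 library 1, 4 or 5. Col1a1 and Col3a1, the main fibrillar collagens, differed by 0.85 (95% interval -0.16 to 1.87) and 0.58 (95% interval -0.37 to 1.52). Of 44 elastic fibre and other matrix genes, 4 had higher values at such a p, where 4.71% of all genes did, and the median was 0.34. Here the count was 13 without Sham library 1, 8 without Sham library 5, 9 without AngII + RvE1 library 2 and 2 without AngII + RvE1 library 4 or 5. With array weights the counts of these lists were 13 and 19. Eln, which encodes elastin, was at 679, 412, 92.4, 300 and 571 FPKM in Sham and at 1302, 346, 730, 1200 and 893 FPKM in AngII + RvE1. Library 2 of the treated group fell inside the Sham range and the other 4 lay above it. The difference of Eln was 1.26 (95% interval 0.10 to 2.42, limma adjusted p 0.694), that of Fn1, fibronectin, 0.98 (95% interval 0.08 to 1.88, limma adjusted p 0.689). The 33 TGF-beta and BMP genes had a median of 0.06, and Tgfb1 itself differed by 0.25 (95% interval -0.56 to 1.06).

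**Figure D4:**
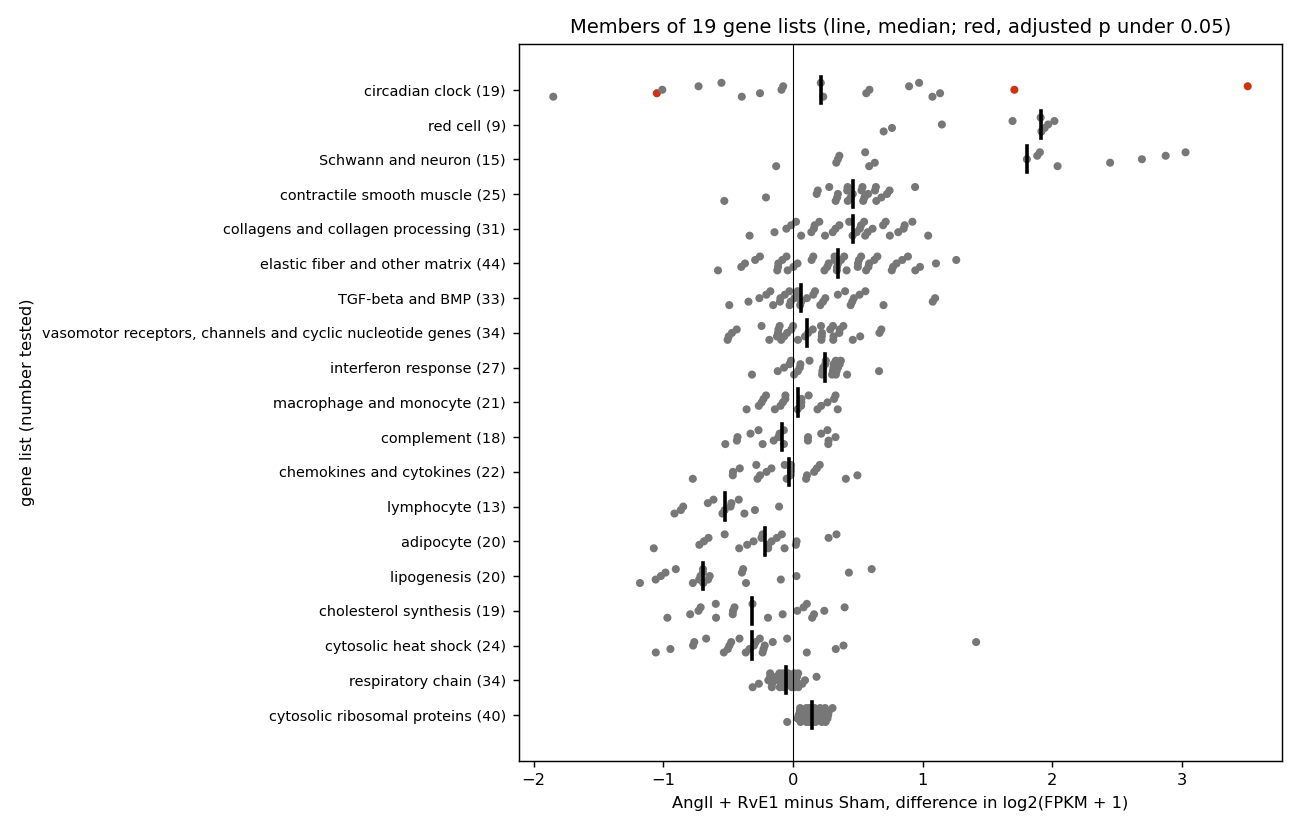
Log2 differences, AngII + RvE1 minus Sham, of the tested members of 19 gene lists, 1 point per gene, called genes in red and a line at the list's median. The medians of the red cell and the nerve list stand at 1.91 and 1.80, and that of the lipogenesis list at -0.69.

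Genes of lipid synthesis had mostly lower values. Of 19 cholesterol synthesis genes, none was called and 7 were lower at an unadjusted p under 0.05, where 1.98% of all genes were, with a median difference of -0.31. The 7 became 2, 1 and 3 without Sham library 2, 3 and 4 in turn, and 3 without AngII + RvE1 library 4 or 5. Cyp51, a demethylase of sterol synthesis, was at 10.3, 10.9, 15.2, 10.9 and 9.92 FPKM in Sham and at 7.002, 8.48, 6.16, 7.79 and 6.59 FPKM in AngII + RvE1. The groups did not overlap, and the difference of -0.59 (95% interval -0.88 to -0.30) had a limma adjusted p of 0.343. Insig1, which retains the sterol sensor in the endoplasmic reticulum, differed by -0.97 (95% interval -1.77 to -0.17, limma adjusted p 0.669). Among 20 lipogenesis genes the median was -0.69, and 17 had negative differences, where 53.1% of all genes had positive ones. At an unadjusted p under 0.05 there were 3, 2 lower and 1 higher, where 6.69% of all genes had such a p. With 1 library left out at a time that count ran from 1 to 16. Elovl5, a fatty acid elongase, ran from 37.8 to 65.2 FPKM in Sham and from 26.2 to 41.9 FPKM in AngII + RvE1, a difference of -0.72 (limma adjusted p 0.343). It was called with array weights only. Fasn, fatty acid synthase, ran from 390 to 2058 FPKM in Sham alone, and its difference was -0.90 (95% interval -2.04 to 0.24). Of 20 adipocyte markers 16 had negative differences, where 53.1% of all genes had positive ones. Their median was -0.21, with list means between 7.45 and 8.20 in Sham and between 7.18 and 8.26 in AngII + RvE1 on the log2 scale. The part of fat content in the lipid gene values was not tested. Over 34 respiratory chain genes the median was -0.06, and the list mean lay between 7.85 and 9.66 in Sham alone on the log2 scale. Over 40 cytosolic ribosomal protein genes the median was 0.15. Of these, 39 were positive, where 53.1% of all genes were. Over 24 cytosolic heat shock genes, which encode chaperones, the median was -0.32. None of these genes was called in the fit over all 15 libraries with equal weights.

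No immune list held a called gene. The spread of the AngII libraries, which enters these tests, was wide for some of these lists. The MHC class II mean ran from 4.70 to 8.42 in AngII, from 3.77 to 4.93 in Sham and from 4.17 to 5.18 in AngII + RvE1 on the log2 scale. The median difference was 0.04 over 21 macrophage and monocyte genes, 0.25 over 27 interferon response genes, -0.03 over 22 chemokine and cytokine genes, 0.06 over 7 MHC class II genes and -0.09 over 18 complement genes. Across these 5 lists a single gene, of the interferon list, had an unadjusted p under 0.05. With 1 library left out that list held 0 to 5 such genes and the complement list 0 to 1. The 13 lymphocyte genes tested all had negative differences, where 53.1% of all genes had positive ones. Their median was -0.53, and none had an unadjusted p under 0.05, which 3 had without AngII libraries 3, 4 and 5. Their list mean lay between 0.48 and 2.41 in Sham and between 0.67 and 1.05 in AngII + RvE1, inside the Sham range, and between 0.74 and 5.65 in AngII. Of single inflammatory genes, Ccl2, a monocyte chemokine, differed by -0.28 (95% interval -1.44 to 0.87), Il1b, interleukin 1 beta, by -0.01 (95% interval -0.98 to 0.95), and Vcam1, an endothelial adhesion molecule, by 0.37 (95% interval -0.54 to 1.28). Cybb, the phagocyte NADPH oxidase subunit, was at 1.31 ± 0.278 FPKM in Sham and 1.27 ± 0.249 FPKM in AngII + RvE1 (SD, n = 5 each).

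**Figure D5:**
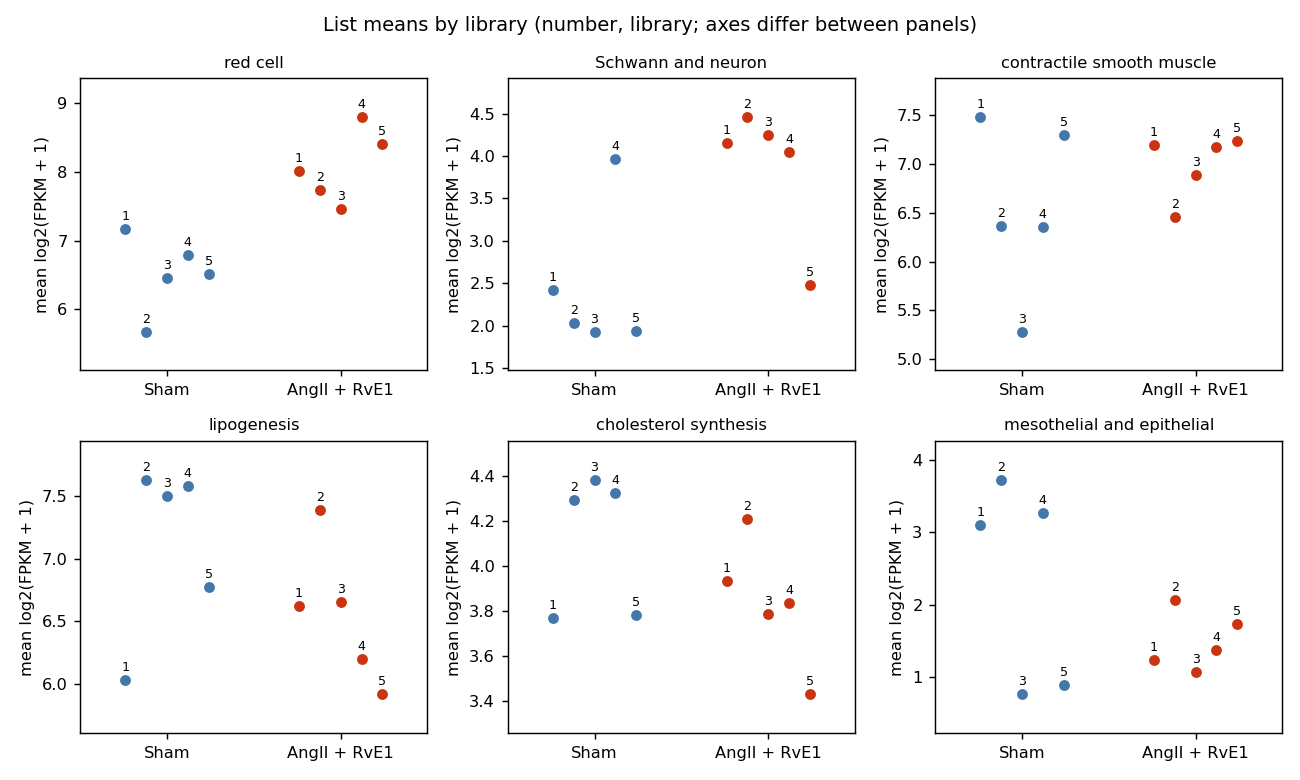
Mean log2(FPKM + 1) of 6 gene lists, 1 numbered point per library, for Sham and AngII + RvE1 (5 libraries each), with an axis of its own in each panel. Red cell means run from 7.46 to 8.80 in AngII + RvE1, above the 5.68 to 7.17 of Sham, while contractile smooth muscle means of these groups overlap.

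The genes of both agents' own pathways did not pass the test. Cmklr1 encodes ChemR23, the RvE1 receptor named in the series title, and was at 8.68 ± 3.58 FPKM in Sham and 7.41 ± 1.06 FPKM in AngII + RvE1 (SD, n = 5 each), a difference of -0.11 (95% interval -0.68 to 0.45). Rarres2, which encodes chemerin, the peptide ligand of that receptor, differed by 0.01 (95% interval -0.48 to 0.49), and Alox5, the lipoxygenase of leukotriene and resolvin synthesis, by 0.11 (95% interval -0.36 to 0.57). Agtr1a, the main angiotensin II receptor of mouse arteries, ran from 1.54 to 3.24 FPKM in Sham and from 1.39 to 5.28 FPKM in AngII + RvE1, a difference of 0.51 (95% interval 0.01 to 1.01, limma adjusted p 0.738). AngII + RvE1 library 5 was the lowest of all 10, and the other 4 of its group lay above every Sham library. Ace, the angiotensin converting enzyme, differed by 0.59 (95% interval -0.15 to 1.33) and Agt, angiotensinogen, by 0.06 (95% interval -0.92 to 1.04). Of the genes of vessel tone and oxidants, Nos3, the endothelial nitric oxide synthase, differed by -0.12 (95% interval -0.63 to 0.38), Edn1, endothelin 1, by 0.31 (95% interval -0.35 to 0.97), and Nox4, an NADPH oxidase, by 0.20 (95% interval -0.69 to 1.09). Fpr2, Ltb4r1, Agtr1b and Il6 were below the filter and were not tested.

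With array weights, which give libraries that stand apart less weight, 17 genes (0.135%) were called, 7 of them clock genes and 2 of them on the red cell list. In a fit of only the 10 libraries compared, Dbp alone was called.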

How the data were processed

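RNA libraries of mouse aorta, 5 each for Sham, AngII and AngII + RvE1 and grouped by their titles, were compared from 1 table deposited by the authors. The deposited values were treated as FPKM, an assumption, since the file names no unit. Their decimals show that they are not whole read counts. The mm10 build comes from the submitters' processing notes. For the aligner, quantifier, annotation and strand setting, the labels and notes are silent (not given in the sources used here), and depth is unknown, so no counting interval is given. Coordinates and promoters come from RefSeq GRCm38.p6.

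Genes with at least 1 FPKM in at least 5 libraries were transformed as log2(FPKM + 1), which pulls differences of low genes toward 0. limma-trend (limma 3.58.1, R 4.3.3) estimated 1 mean for each group over the 15 libraries; contrasts were tested two-sided and adjusted by Benjamini-Hochberg over 12603 genes per contrast, for 3 contrasts. The procedure was tested on simulated data. The plan named a count test for the case that the file held counts, which it does not. Intervals are unadjusted 95% intervals.

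The comparison, gene lists and tests were chosen with earlier results of these data known. Because fewer than 5 genes were called, the naming rule took the 12 genes with the smallest p, called list members and a set of 26 genes of the study's field, of which 22 were tested. A few members are not reported here but stay in every count. Other genes are list members, or neighbours of these genes, named after their values were seen. Alternatives were another added value, no filter, only the 10 libraries compared, the replicate number as a block, rescaling, array weights and each library left out, and, chosen after seeing the data, AngII libraries 3, 4 and 5 left out together.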

Additional observations from a re-analysis of the deposited data

Results flagged for a closer look

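Single libraries that stood far from the other 4 of their group were looked for in 170 groups of values, the named genes and list means of Sham and AngII + RvE1, and 10 (5.88%) had one, where chance gives about 1 in 20. Gm36317 was at 1.66 FPKM in AngII + RvE1 library 2, above the rest of its group. Cmklr1 was at 5.59 FPKM in AngII + RvE1 library 3 and Ace at 12.2 FPKM in Sham library 3, each below the rest of its group. Ccl2 was at 6.47 FPKM in Sham library 4, above the other Sham libraries.

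The other 6 were list means on the log2 scale. The Schwann and neuron mean was 3.96 in Sham library 4, above the rest of Sham, and 2.48 in AngII + RvE1 library 5, below the rest of its group. The skeletal muscle mean was 4.43 in AngII + RvE1 library 2 and the MHC class II mean 5.18 in AngII + RvE1 library 5, both above their groups. The Wnt mean was 2.07 in Sham library 3, and the NADPH oxidase and antioxidant mean was 5.27 in AngII + RvE1 library 4, both below their groups.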

How the results depend on the processing

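Dbp was called in all 22 alternatives, with log2 differences from 3.35 to 3.79 and limma adjusted p from 1.65e-05 to 0.00831. Nr1d1 was called in 10 of 22 (1.55 to 1.93, limma adjusted p 0.00221 to 0.148) and Cry1 in 9 of 22 (-1.41 to -0.99, limma adjusted p 0.00376 to 0.178), with no change of sign. The count of 3 called genes (2 higher, 1 lower) became 1 (1 higher, 0 lower) without the filter, with only the 10 libraries compared and with the replicate block, and 17 (13 higher, 4 lower) with array weights. With 1 library left out at a time it ran from 1 to 8, 1 to 4 higher and 0 to 4 lower. Only Dbp was called without Sham replicate 2, 3 or 4, AngII replicate 2, or AngII + RvE1 replicate 1, 3, 4 or 5, and 8 genes were called without AngII + RvE1 replicate 2. Without AngII libraries 3, 4 and 5 the count was 5, all clock genes. Nr1d1 also missed without Sham replicate 1, and Cry1 without Sham replicate 5 or AngII replicate 4. For these changes the cause was not tested.

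The labels do not say whether the replicate numbers pair the libraries, and so few correlations cannot settle it. The correlations of same-numbered deviations were 0.0238, 0.182, 0.521, 0.0783 and 0.197, and 1 library correlated best with its own number. With the number as a replicate block, limma adjusted p was 0.148 for Nr1d1 and 0.131 for Cry1, at unchanged differences.

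Of 43 genes followed, 11 changed sign in some alternative, and none of these was called. With 1 library left out, differences ran from -0.44 to 0.15 for Per1, -0.23 to 0.0898 for Rora, -0.37 to 0.0285 for Cmklr1, -0.16 to 0.18 for Rarres2, -0.0119 to 0.18 for Alox5, -0.0808 to 0.27 for Agt, -0.15 to 0.48 for Nox4, -0.0778 to 0.0261 for Cybb, -0.29 to 0.0514 for Nos3, -0.52 to 0.006 for Ccl2 and -0.16 to 0.13 for Il1b. Rarres2 was also -0.0247 after rescaling and -0.059 with array weights.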
